A study of Mus musculus with 10 samples.

Results

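Ion channel genes were followed across 3 kinds of sorted mouse liver cell. The set was drawn by name: protein-coding genes whose symbol starts with Kcn, Clcn, Scnn, Trpc, Trpm or Trpv, or with Ano and a digit, leaving out Kcnn4 and Ano1. The rule found 137 genes among the 29972 genes of the tables. Of these, 40 reached 1 TPM (a transcript's share of the library, corrected for transcript length) in at least 3 of the 10 libraries and were tested, among 14765 genes that did so in all. The other 97 stayed under that limit. The set covers potassium channels and their subunits (Kcn), CLC chloride channels and exchangers (Clcn), epithelial sodium channel subunits (Scnn), transient receptor potential cation channels (Trpc, Trpm, Trpv) and anoctamins (Ano).

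Peripheral cholangiocytes that derive from hepatocytes (HpC) gave 4 libraries, ordinary peripheral cholangiocytes (pC) gave 3, and hepatocytes (H) gave 3. HpC and H came from mice labelled Alb-Cre+/-;Rbpjf/f;Hnf6f/f, in which Cre is driven by the albumin promoter, and pC from Rbpjf/f;Hnf6f/f mice without Cre. All groups thus carry the floxed alleles of Rbpj, through which Notch receptors act on DNA, and of Hnf6, another name of Onecut1. All mice were of a mixed C57BL/6, FVB and CD1 background and aged P119 to P151 (postnatal days). HpC and pC were sorted by flow cytometry from digested nonparenchymal cells and H after perfusion alone. HpC and pC thus differ in Cre genotype as well as in origin, and the effects of these cannot be told apart. Both differ from H in preparation as well as in cell type, and pC differs from H in Cre genotype too. In the comparisons with H these effects cannot be told apart either. H2, H3 and HpC4 share an age (P139), and the labels do not say which libraries came from separate animals. P-values then measure only the spread between these samples, which may be technical. In libraries of sorted cells, fewer cells of a type and less RNA per cell cannot be told apart.

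Cholangiocytes line the bile ducts and modify bile by moving chloride, bicarbonate and water. Chloride leaves at the apical membrane through CFTR and calcium-activated channels, and potassium channels keep the membrane potential that drives it out. Cation channels of the TRP family on cholangiocyte cilia and membranes respond to flow and osmolarity. Hepatocytes use potassium and chloride channels in volume control and CLC exchangers in endosomes and lysosomes.

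The 250 bases before the RefSeq start of 5 genes are shown because these genes differed between HpC and pC and start close to their most abundant transcript: Kcnk1 and Kcnk5 were lower in HpC, and Kcnh7, Kcnj15 and Scnn1b were higher. Capitals mark CG dinucleotides, and each window is read 5′ to 3′ along the gene's strand (GRCm38.p6, sequences from RefSeq).
Kcnk1: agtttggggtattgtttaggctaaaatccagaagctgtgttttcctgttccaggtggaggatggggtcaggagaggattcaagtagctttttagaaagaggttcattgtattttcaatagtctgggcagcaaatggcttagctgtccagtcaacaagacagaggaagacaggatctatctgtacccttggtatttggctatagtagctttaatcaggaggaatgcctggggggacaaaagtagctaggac
Kcnk5: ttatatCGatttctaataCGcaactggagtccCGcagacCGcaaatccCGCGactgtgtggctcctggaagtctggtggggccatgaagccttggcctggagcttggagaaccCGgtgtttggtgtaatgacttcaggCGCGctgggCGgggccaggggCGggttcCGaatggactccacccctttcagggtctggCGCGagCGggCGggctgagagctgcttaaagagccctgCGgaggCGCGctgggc
Kcnh7: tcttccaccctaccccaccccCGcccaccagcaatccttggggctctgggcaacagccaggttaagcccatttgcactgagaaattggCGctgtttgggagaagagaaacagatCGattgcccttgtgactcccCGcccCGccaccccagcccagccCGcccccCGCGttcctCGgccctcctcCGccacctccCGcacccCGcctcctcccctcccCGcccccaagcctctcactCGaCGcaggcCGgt
Kcnj15: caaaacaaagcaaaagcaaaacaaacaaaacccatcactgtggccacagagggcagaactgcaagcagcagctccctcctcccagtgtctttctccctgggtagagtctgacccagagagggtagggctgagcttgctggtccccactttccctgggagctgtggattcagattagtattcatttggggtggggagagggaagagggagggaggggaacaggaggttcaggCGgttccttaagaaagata
Scnn1b: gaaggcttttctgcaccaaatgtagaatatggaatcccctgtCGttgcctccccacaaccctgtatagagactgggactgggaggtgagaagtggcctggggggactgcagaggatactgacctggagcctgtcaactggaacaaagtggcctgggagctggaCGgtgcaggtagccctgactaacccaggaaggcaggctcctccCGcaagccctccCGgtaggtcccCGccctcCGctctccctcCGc
The windows lie at chr8:125994852-125995101 (Kcnk1, plus strand), chr14:20181783-20182032 (Kcnk5, minus strand), chr2:63184288-63184537 (Kcnh7, minus strand), chr16:95257308-95257557 (Kcnj15, plus strand) and chr7:121864788-121865037 (Scnn1b, plus strand). The Kcnk1 window held 0 CG and the Kcnj15 window 1, against a median of 6 over 32851 RefSeq windows of the same length. The Kcnk5 window held 19, a number that 19.7% of windows reached, the Kcnh7 window 16, which 25.4% reached, and the Scnn1b window 7, which 46.3% reached. The letters TGGGAA (in the sites of RBPJ, on either strand) occur in 21.6% of the windows and ATTGAT (in the sites of ONECUT factors) in 6.72%. The letters of neither are in these 5 windows. The start of the most abundant transcript lay 68 bases from the window's end for Kcnk1, 27 for Kcnk5, 9 for Kcnh7, 0 for Kcnj15 and 0 for Scnn1b.

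The libraries held 10232 to 14489 genes at 1 TPM, and the number of reads is unknown. The labels were checked against marker genes. Summed hepatocyte markers (20 of 20 measured) were 136572 to 156944 scaled TPM in H, 3707 to 8525 in HpC and 1116 to 3128 in pC. Summed cholangiocyte markers (15 of 15) were 1958 to 2944 in HpC, 5765 to 5911 in pC and 180 to 188 in H. Without Spp1 they were 1101 to 1869 in HpC and 1501 to 1709 in pC. HpC1 held 271644 scaled TPM of 15 pancreatic acinar markers, against 12.7 to 179 in the other HpC, and pC3 held 1170. HpC2 held 39309 of 14 stratified squamous markers, against at most 13.0 in any other library. Results for ion channels are therefore also given without HpC1 and HpC2. Onecut1 stood at 19.3 to 46.3 scaled TPM in HpC, 63.0 to 81.9 in pC and 46.0 to 109 in H, and Rbpj at 4.09 to 6.24, 5.51 to 6.82 and 1.20 to 1.59. A level summed over a whole gene need not fall where Cre removes some exons, so these values do not check the labels.

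All levels below are scaled TPM, meaning TPM divided by a factor per library that was fitted over all genes, so that libraries of different composition can be compared. All log2 differences are on log2(scaled TPM + 1), which understates the change of low genes. A difference was called where its p from limma, adjusted by Benjamini-Hochberg over the 14765 genes, was under 0.05. The 3 comparisons share libraries, so their counts do not stand independently of each other.

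Between HpC and pC, 7 of the 40 genes were called (17.5% of them), against 4.54% of all genes tested. In HpC 3 rose (Kcnh7, Kcnj15 and Scnn1b), where 1.99% of all genes did, and 4 fell (Kcnk1, Kcnk5, Kcnma1 and Kcnab1), where 2.55% did. Without HpC1 and HpC2, 8 were called, against 4.4% of all genes. The median log2 difference of the 40 genes was -0.11, against -0.01 for all genes. The filter took part in this: Kcnj15, Kcnk6 and Trpv6 reached 1 TPM in HpC libraries alone, so that the filter itself favours a higher level in HpC for them, and the count is a description. Potassium channel pores and subunits (Kcn genes) made up 20 of the 40 genes tested, 2 of the 3 that rose and all 4 that fell. Of the 40 genes, 12 had HpC and pC levels that did not overlap, against 16.5% of all genes. The summed hepatocyte markers were also higher in every HpC than in every pC library, and several markers of mesothelium and fibroblasts were too. Gpm6a and Rgs5, of the same lists, were lower in every HpC library. Of 7 mesothelial markers, 3 were called higher in HpC and 1 lower, with Msln at 14.7 to 32.8 in HpC and 3.44 to 11.6 in pC and Upk1b at 3.17 to 5.57 and 0.423 to 0.66. The sum of these 7 was 42.8 to 78.2 in HpC, 49.1 to 62.7 in pC and 0.709 to 1.43 in H. Of 14 stellate and fibroblast markers 1 was called higher, with Col1a1 at 4.23 to 11.7 in HpC and 1.16 to 2.7 in pC and a sum of 43.9 to 123.7 and 56.9 to 71.7. The part of all these cell types in the differences was not tested.

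**Figure D1:**
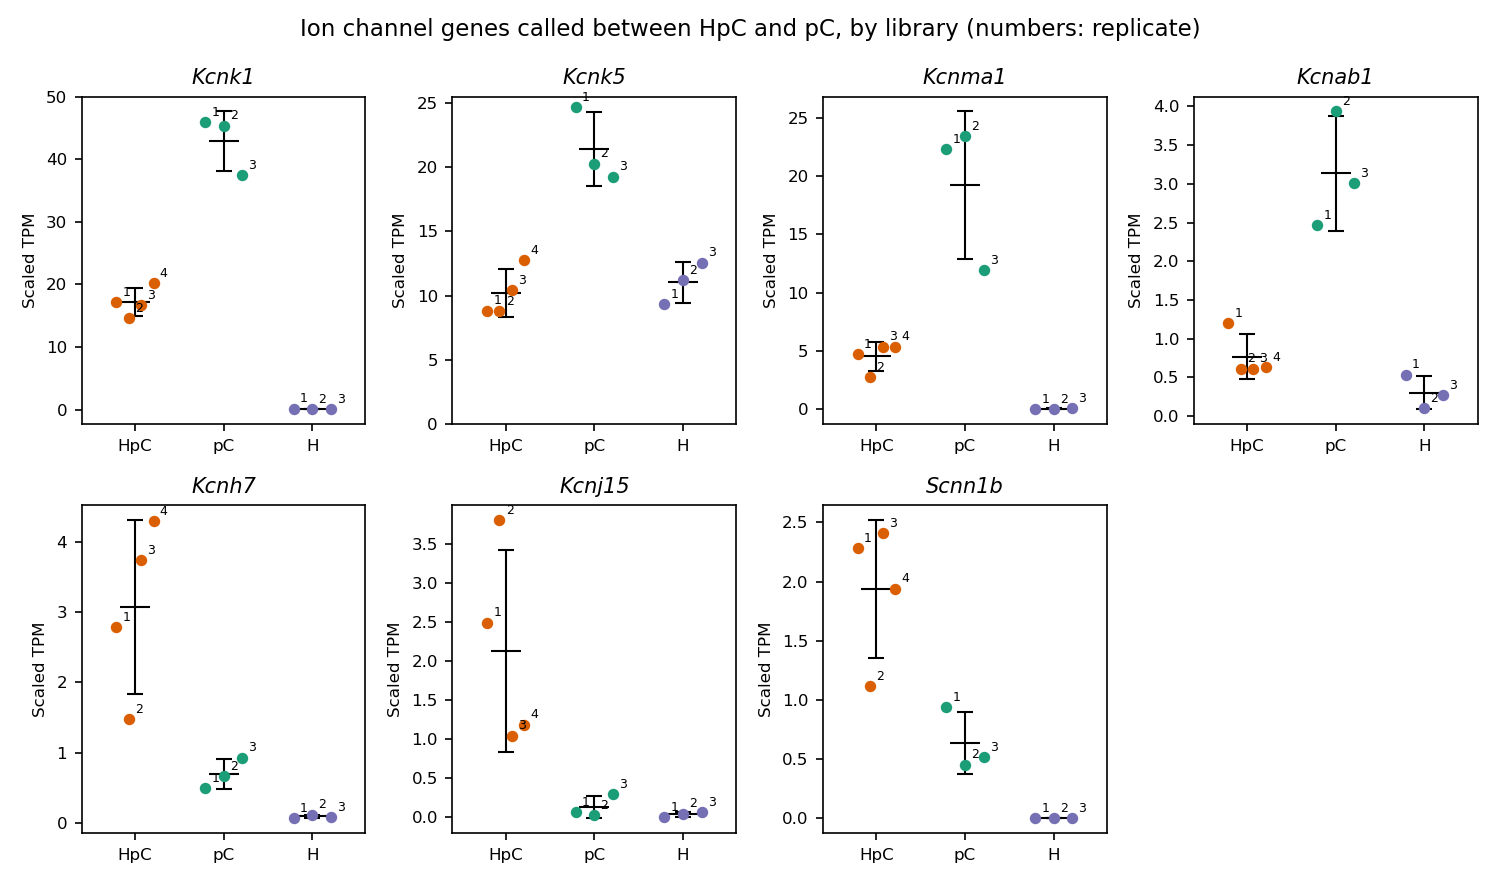
Levels of the 7 ion channel genes called between HpC and pC, in scaled TPM (y axis) by group (x axis). Each point is a library with its replicate number, the wide line is the group mean and the bars are 1 SD. Kcnk1, Kcnk5, Kcnma1 and Kcnab1 are lower in every HpC than in every pC library, and Kcnh7, Kcnj15 and Scnn1b higher.

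Kcnk1 encodes TWIK-1, a potassium leak channel of the tandem-pore family. It lies on chromosome 8 from base 125995170 to 126030685 (plus strand, GENCODE M21, mm10). In scaled TPM, HpC1 to HpC4 held 17.2, 14.6, 16.8 and 20.2, pC1 to pC3 held 45.9, 45.4 and 37.5, and H1 to H3 held 0.156, 0.119 and 0.0542. The 3 groups did not overlap, and HpC stood between the others. The log2 difference between HpC and pC was -1.27 ± 0.15 (SE, adjusted p = 0.00149 by limma). It was called in each of the 10 fits that left out 1 library, and it was -1.17 (adjusted p = 0.00812) without HpC1 and HpC2. Against H, Kcnk1 was higher by 4.03 ± 0.15 in HpC (adjusted p = 4.1e-08) and by 5.30 ± 0.16 in pC (adjusted p = 5.26e-08), the largest difference of the set in pC.

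Kcnk5 encodes TASK-2, a tandem-pore channel that opens in alkaline surroundings and takes part in bicarbonate transport and volume control. The gene spans bases 20140057 to 20181809 of chromosome 14 (minus strand). Its level was 8.84, 8.78, 10.4 and 12.8 in HpC, 24.7, 20.3 and 19.3 in pC, and 9.35, 11.2 and 12.6 in H. HpC and H overlapped, and pC stood above both. HpC was lower than pC by a log2 difference of -1.01 ± 0.17 (adjusted p = 0.00967 by limma). The difference from H was -0.11 ± 0.17 in HpC (adjusted p = 0.605) and 0.90 ± 0.18 in pC (adjusted p = 0.00191). The call against pC missed the threshold without pC1 (adjusted p = 0.0516) and relative to nuclear protein-coding TPM (adjusted p = 0.0662), and was kept without HpC1 and HpC2 (-0.83, adjusted p = 0.0454). Kcnk6 (TWIK-2), the third tandem-pore gene that was tested, ran from 0.837 to 2.27 in HpC and from 0.30 to 0.620 in pC, without overlap, at a log2 difference of 0.63 ± 0.22 that was not called (adjusted p = 0.154).

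Kcnma1 encodes the pore of the large-conductance calcium-activated potassium channel BK. The gene spans bases 23289431 to 24014491 of chromosome 14 (minus strand). Its level was 4.69, 2.74, 5.36 and 5.37 in HpC, 22.3, 23.4 and 12.0 in pC, and 0, 0 and 0.0791 in H. No HpC library reached the lowest pC library. The log2 difference was -1.85 ± 0.26 (adjusted p = 0.00371 by limma), the largest of the 4 that fell, and it was -1.61 (adjusted p = 0.0182) without HpC1 and HpC2. It held in each fit without 1 library. Kcnma1 exceeded H by 2.40 ± 0.26 in HpC (adjusted p = 2.38e-05) and by 4.25 ± 0.28 in pC (adjusted p = 7.77e-07). Kcnmb4, which encodes a modulating subunit of BK, ran from 0.621 to 4.01 in HpC, 1.98 to 5.03 in pC and 0 to 2.63 in H and was called in no comparison. Transcripts annotated as protein-coding made up only 0.395% of the summed Kcnmb4 level.

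Kcnn2 encodes the small-conductance calcium-activated channel SK2, which senses calcium through bound calmodulin. Its level was 17.1, 21.6 and 18.4 in H, 1.55, 0.288, 0.538 and 0.244 in HpC, and 1.53, 1.71 and 0.535 in pC. H stood far above both cholangiocyte groups, which overlapped each other. HpC was lower than H by a log2 difference of -3.65 ± 0.29 (adjusted p = 2.32e-06 by limma), and pC by -3.18 ± 0.31 (adjusted p = 1e-05). Kcnn2 had the largest difference in favour of H of the 40 genes in either comparison. Kcnt2, a sodium-activated potassium channel, ran from 0.377 to 1.47 in HpC, 1.81 to 2.95 in pC and 0.640 to 1.31 in H. HpC and pC did not overlap there, at -0.73 ± 0.25 (adjusted p = 0.154), and pC exceeded H by 0.75 ± 0.27 (adjusted p = 0.0324). The latter call was lost without pC1, pC3 or H3 (adjusted p up to 0.115), with a pseudocount of 0.1 (1.17, adjusted p = 0.0638) and with no filter (0.0555).

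Kcnab1 encodes a beta subunit that binds voltage-gated potassium channels and has an aldo-keto reductase fold. Its place is chromosome 3, bases 65109384 to 65378223 (plus strand). Its level was 1.20, 0.613, 0.613 and 0.636 in HpC, 2.47, 3.94 and 3.01 in pC, and 0.535, 0.107 and 0.271 in H. The 3 groups did not overlap. HpC was lower than pC by -1.23 ± 0.20 (adjusted p = 0.00772 by limma), and the call held in each fit without 1 library and without HpC1 and HpC2 (-1.33, adjusted p = 0.0155). Against H, pC was higher by 1.66 ± 0.21 (adjusted p = 8.24e-05) and the difference of HpC was 0.44 ± 0.20 (adjusted p = 0.0841).

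Kcnab2, a beta subunit of the same family, had the other order. Its level was 7.24, 1.82, 6.44 and 9.59 in HpC, 3.39, 3.75 and 2.87 in pC, and 0.358, 0 and 0 in H. HpC1, HpC3 and HpC4 exceeded every pC library and HpC2 was below them all. The log2 difference between HpC and pC was 0.60 ± 0.39 (adjusted p = 0.47 by limma), and without HpC2 it was 1.0 (adjusted p = 0.0230). Without HpC1 and HpC2 together it was 1.04 (adjusted p = 0.0467). Both groups exceeded H, by 2.56 ± 0.39 in HpC (adjusted p = 0.000236) and 1.96 ± 0.41 in pC (adjusted p = 0.00216). Of the summed Kcnab2 level 26.4% came from transcripts annotated as protein-coding, and over such transcripts alone the difference between pC and H was 0.84 and was not called.

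Kcnh7 encodes Erg3, a voltage-gated potassium channel of the ether-a-go-go family known mainly from neurons. It lies on chromosome 2 from 62693414 to 63184287 (minus strand). Its level was 2.79, 1.47, 3.75 and 4.29 in HpC, 0.496, 0.665 and 0.929 in pC, and 0.0705, 0.114 and 0.0828 in H. The 3 groups did not overlap, with HpC the highest. HpC exceeded pC by 1.22 ± 0.25 (adjusted p = 0.0228 by limma) and H by 1.85 ± 0.25 (adjusted p = 0.000114). Leaving out HpC3, pC1 or pC2 ended the call against pC (adjusted p up to 0.0996). So did TPM as deposited (0.133), TPM relative to nuclear protein-coding genes (0.127) and a fit of only the 2 groups (0.0733). Without HpC1 and HpC2 the difference was 1.57 (adjusted p = 0.00387). Exons of Kcnh7 share 696 bases with Gca on the opposite strand. The sources used here do not state whether the kit kept strand, and reads of these bases cannot be told apart. Shared bases with noncoding genes on the opposite strand were 179 for Kcnk1, 201 for Kcnab1, 333 for Kcnj15 and 1016 for Kcnma1.

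Kcnj15 encodes the inward rectifier Kir4.2. It lies on chromosome 16 from 95257558 to 95300260 (plus strand). Its level was 2.49, 3.80, 1.04 and 1.19 in HpC, 0.0691, 0.0307 and 0.291 in pC, and 0, 0.0461 and 0.0684 in H. The highest levels were those of HpC1 and HpC2, the libraries with acinar and squamous transcripts. The log2 difference between HpC and pC was 1.39 ± 0.29 (adjusted p = 0.0228 by limma), and it was 0.91 (adjusted p = 0.0287) without HpC1 and HpC2. The call was lost without HpC1, pC1, pC2 or pC3 (adjusted p up to 0.102), in a fit of only the 2 groups (0.0725) and with a pseudocount of 5 (0.46, adjusted p = 0.0575). Against H, HpC was higher by 1.5 ± 0.29 (adjusted p = 0.00114), and the difference between pC and H was 0.12 ± 0.31 (adjusted p = 0.761). Kcnj15 reached 1 TPM in HpC libraries alone, so its calls in HpC against pC and H follow in part from the filter. The part of the acinar and squamous transcripts in the level of HpC1 and HpC2 was not tested. Kcnj16 encodes Kir5.1, which pairs with other inward rectifiers. It ran from 0.959 to 2.28 in HpC, 0.662 to 0.887 in pC and 0.0693 to 0.145 in H, without overlap. HpC exceeded H (1.10 ± 0.20, adjusted p = 0.000739), as did pC (0.64 ± 0.21, adjusted p = 0.0224), and the difference from pC was not called (0.45 ± 0.20, adjusted p = 0.26). The call in pC was lost without pC1, H2 or H3 (adjusted p up to 0.0679) and with a pseudocount of 5 (0.17, adjusted p = 0.0826).

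Scnn1b encodes the beta subunit of the epithelial sodium channel, which takes up sodium at apical membranes. It lies on chromosome 7 from 121865038 to 121918514 (plus strand). Its level was 2.28, 1.12, 2.41 and 1.94 in HpC and 0.938, 0.451 and 0.518 in pC, and it was listed at 0 in H1, H2 and H3. HpC and pC did not overlap. The log2 difference was 0.83 ± 0.20 (adjusted p = 0.048 by limma), the weakest of the 7 calls. It was lost in 9 of the 10 fits that left out 1 library, all but that without HpC2, with adjusted p up to 0.195. It was also lost with TPM as deposited, with every other scaling tried, with a pseudocount of 0.1, with no filter and in a fit of only the 2 groups. Without HpC1 and HpC2 it was 0.97 (adjusted p = 0.0302).

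Scnn1a encodes the alpha subunit of that channel. Its level was 2.59, 23.4, 1.45 and 2.55 in HpC, 3.81, 6.74 and 4.30 in pC, and 17.5, 12.6 and 12.2 in H. HpC2 stood above all H libraries and the other HpC libraries below all pC libraries. The difference between HpC and pC was -0.15 ± 0.66 (adjusted p = 0.93 by limma), and without HpC2 it was -0.89 (adjusted p = 0.0824). HpC2 is the library with the squamous transcripts, whose part in this level was not tested. The difference between HpC and H was -1.51 ± 0.66 (adjusted p = 0.0714). Scnn1g, the gamma subunit, reached 1 TPM in 2 libraries only, HpC1 (1.48 TPM as deposited) and HpC4 (1.79), and was not tested.

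**Figure D2:**
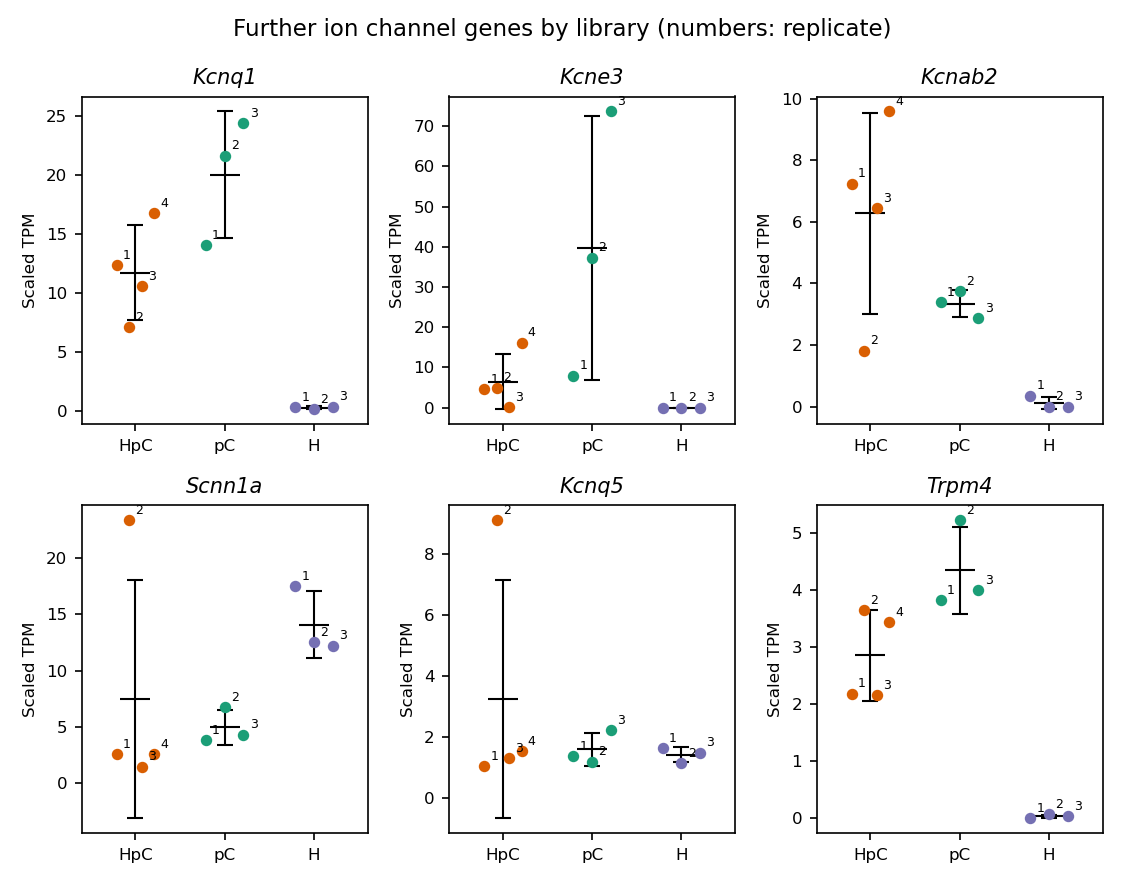
Levels in scaled TPM (y axis) of 6 further ion channel genes by group (x axis), with each library as a point numbered by replicate, the group mean as the wide line and 1 SD as bars. HpC2 stands at 23.4 for Scnn1a, 9.10 for Kcnq5 and 1.82 for Kcnab2, away from the other HpC libraries, and Kcne3 spreads from 7.99 to 73.7 within pC.

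Kcnq1 encodes the pore of a potassium channel that, joined by the Kcne3 subunit, stays open and carries basolateral potassium current in secretory epithelia. Kcnq1 stood at 12.4, 7.10, 10.6 and 16.8 in HpC, 14.1, 21.7 and 24.4 in pC, and 0.318, 0.132 and 0.363 in H. Both cholangiocyte groups stood far above H and overlapped each other. Kcnq1 exceeded H by 3.27 ± 0.27 in HpC (adjusted p = 3.33e-06 by limma) and by 4.02 ± 0.29 in pC (adjusted p = 1.36e-06), and HpC differed from pC by -0.75 ± 0.27 (adjusted p = 0.177). Kcne3 was listed at 0 in all 3 H libraries and stood at 4.55, 4.99, 0.0621 and 16.2 in HpC and 7.99, 37.3 and 73.7 in pC. The Kcne3 levels spread over a wide range in both cholangiocyte groups, with HpC3 near 0, and HpC4 exceeded pC1. Its difference between HpC and pC was -2.57 ± 0.88 (adjusted p = 0.154 by limma), and it was -3.61 (adjusted p = 0.0257) when libraries were weighted by their spread. Kcne3 was called higher than in H in pC (adjusted p = 0.00131) and in HpC (adjusted p = 0.0442). The second of these was lost in 7 of the 10 fits without 1 library.

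Among the other voltage-gated pores, Kcnh3 was low. It ran from 0.379 to 1.14 in HpC, 0.906 to 1.47 in pC and 0 to 0.0368 in H. Kcnh3 was called higher than H in pC (adjusted p = 0.00132 by limma) and in HpC (adjusted p = 0.00772). Kcnq5, a channel of the slow M-current, was 9.10 in HpC2 and 1.03 to 2.22 in all other libraries and was called in no comparison. Of the subunits and binding proteins, Kcnip3, a calcium-binding partner of Kv4 channels, was listed at 0 in H and was 0.208 to 1.07 in HpC, a call by limma (adjusted p = 0.0136). Kcnip4 and Kcnrg stayed at 1.14 or lower and were called in no comparison.

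Against H, 26 of the 40 genes were called in HpC, against 59.9% of all genes tested. Of these 21 rose and 5 fell, where 30.7% and 29.2% of all genes did. Without HpC1 and HpC2, 28 were called, against 62% of all genes. In pC 24 were called, against 59.6% of all genes, with 20 higher and 4 lower, against 31.1% and 28.6%. The shares of the set, 65.0% and 60.0%, were near those of all genes. The median log2 difference of the 40 genes was 0.70 between HpC and H, against 0.08 over all genes, and 0.67 between pC and H, against 0.11. No H library reached 1 TPM for 26 of the 40 genes, which therefore passed the filter through cholangiocyte libraries, and the direction of the counts follows in part from that. Levels in HpC and H did not overlap for 28 genes (60.5% of all genes) and levels in pC and H for 31 (70.3%). The split by direction also moved with the scaling. With TPM as deposited, 27 genes were called higher and 1 lower in HpC than in H, and 32 higher and 1 lower in pC. Over all genes the share of calls that were higher moved from 51.2% to 83.3% in HpC and from 52.1% to 88.2% in pC, and the median difference moved from 0.08 to 0.87 and from 0.11 to 1.20. Between HpC and pC that share moved from 43.8% to 26.1% and the median from -0.01 to -0.36, and 1 channel gene was called higher and 4 lower.

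**Figure D3:**
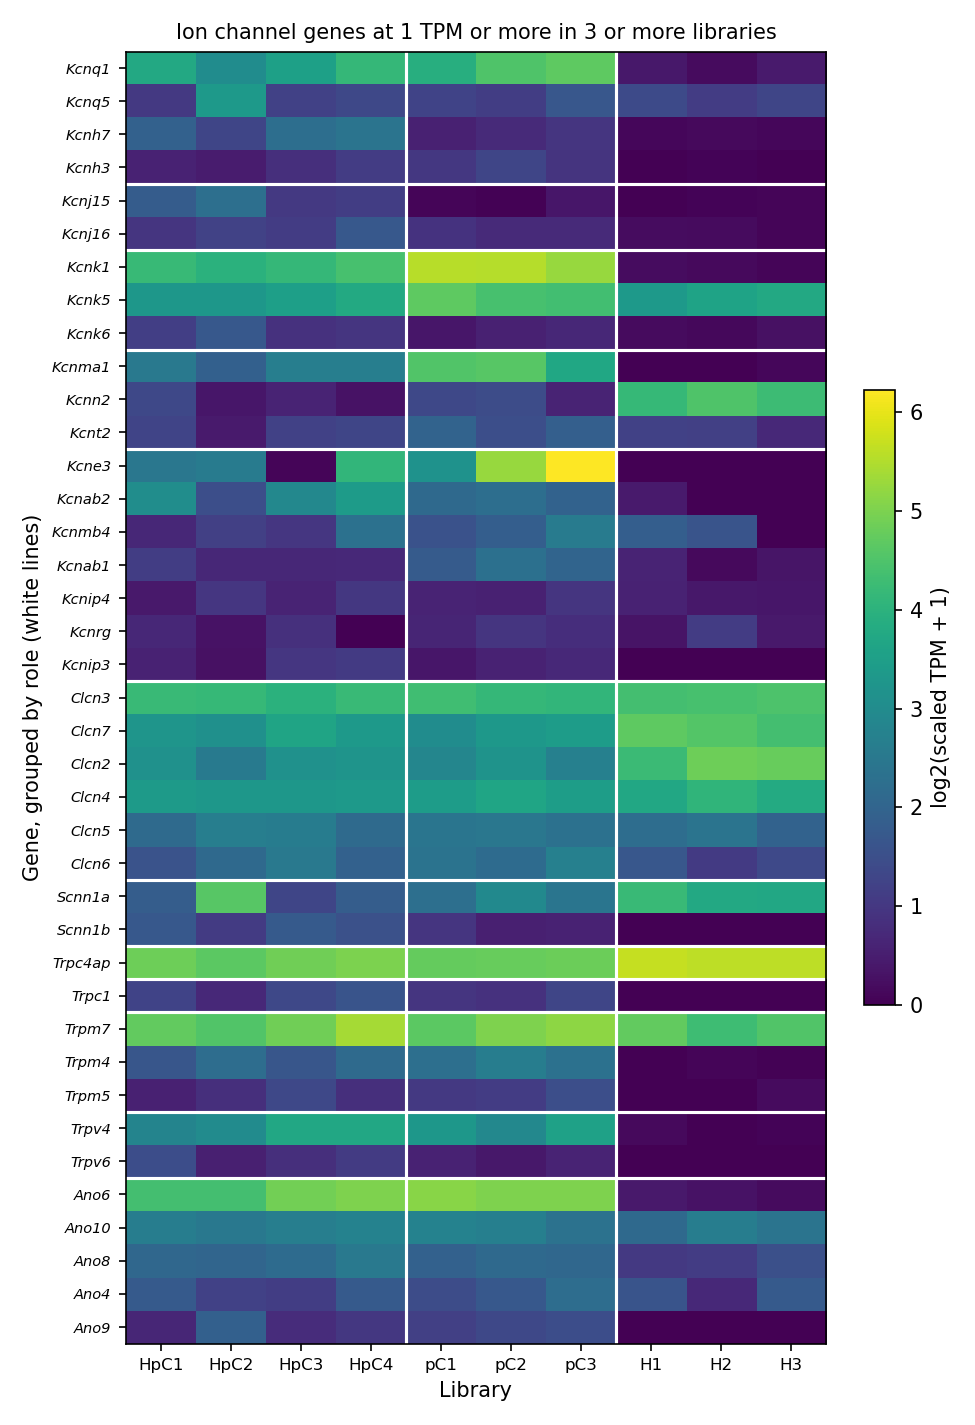
Levels of tested genes in each library, as log2(scaled TPM + 1), with genes in rows grouped by role (white lines) and libraries in columns grouped by HpC, pC and H. Kcnq1, Kcnk1, Trpv4 and Ano6 are bright in HpC and pC and dark in H, and Kcnn2 shows the other pattern.

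Ano6 encodes a calcium-activated phospholipid scramblase that also passes ions. Its level was 19.6, 19.5, 28.6 and 31.4 in HpC, 33.8, 31.4 and 31.3 in pC, and 0.337, 0.229 and 0.126 in H. Both cholangiocyte groups were high, and their ranges met at HpC4. Ano6 exceeded H by 4.36 ± 0.19 in HpC (adjusted p = 8.61e-08 by limma), the largest difference of the set there, and by 4.76 ± 0.20 in pC (adjusted p = 7.55e-08). The difference between HpC and pC was -0.39 ± 0.19 (adjusted p = 0.317). Of the other anoctamins, Ano8 was 3.06 to 4.76 in HpC, 2.82 to 3.36 in pC and 1.04 to 1.86 in H and was called higher than H in both (adjusted p = 0.001 and 0.00424). Ano9, known as a lipid scramblase, was listed at 0 in H and was 0.587 to 2.78 in HpC and 1.28 to 1.76 in pC, and it was called in both as well (adjusted p = 0.00604 and 0.00299). Ano10 (3.34 to 5.78 over all libraries) and Ano4 (0.635 to 3.66) were called in no comparison. No anoctamin was called between HpC and pC by limma.

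Trpv4 encodes a calcium-permeable channel that opens with swelling, flow and warmth and sits on cholangiocyte cilia. Its level was 5.97, 6.97, 12.3 and 12.3 in HpC, 8.83, 6.54 and 10.8 in pC, and 0.119, 0 and 0.0396 in H. HpC and pC overlapped and H was near 0. Trpv4 exceeded H by 3.24 ± 0.26 in HpC (adjusted p = 2.94e-06 by limma) and by 3.18 ± 0.28 in pC (adjusted p = 5.65e-06), and HpC differed from pC by 0.06 ± 0.26 (adjusted p = 0.93). Trpv6, a calcium-selective channel, was listed at 0 in H and was 0.452 to 1.76 in HpC and 0.319 to 0.537 in pC. It reached 1 TPM in HpC libraries alone, so its call against H in HpC (adjusted p = 0.00287) follows in part from the filter. The levels of HpC and pC overlapped, and their difference was not called (0.44 ± 0.22, adjusted p = 0.328).

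Trpm4 encodes a channel for monovalent cations that calcium opens. Its level was 2.18, 3.64, 2.16 and 3.44 in HpC, 3.82, 5.23 and 4.0 in pC, and 0, 0.0616 and 0.0282 in H. Each pC library exceeded each HpC library, by little at the closest pair. The difference of -0.49 ± 0.19 between HpC and pC was not called (adjusted p = 0.217 by limma), and was -0.69 (adjusted p = 0.0243) with libraries weighted by their spread. Trpm4 exceeded H by 1.88 ± 0.19 in HpC (adjusted p = 1.45e-05) and by 2.37 ± 0.20 in pC (adjusted p = 4.79e-06). Trpm5, a close relative, ran from 0.488 to 1.55 in HpC, 1.04 to 1.82 in pC and 0 to 0.132 in H and was also called higher than H in both (adjusted p = 0.00658 and 0.00153). Over protein-coding transcripts alone Trpm5 was not called in HpC (0.63, adjusted p = 0.0596).

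Trpm7 encodes a magnesium- and zinc-permeable channel joined to a kinase. Its level was 25.4, 22.3, 28.5 and 40.4 in HpC, 24.2, 31.6 and 34.9 in pC, and 25.6, 18.7 and 22.1 in H. At this scaling the 3 groups overlapped and Trpm7 was called in no comparison by limma. With TPM as deposited, every H library was below every HpC and pC library. Whether Trpm7 is called against H under other scalings was not followed. Its mean of 29.2 ± 7.94 (SD, n = 4) was the highest of the set in HpC. Transcripts annotated as protein-coding made up 35.5% of its level. Trpc1, a subunit of store- and receptor-operated cation channels, stood at 1.38, 0.639, 1.57 and 2.04 in HpC and 0.957, 0.840 and 1.48 in pC and was listed at 0 in all H libraries. HpC and pC overlapped, and both were called higher than H (adjusted p = 0.000779 and 0.00326). It was the only one of 7 TRPC channel genes to be tested.

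Of the 5 genes lower in HpC than in H, 3 belong to the CLC family (Clcn2, Clcn4 and Clcn7). Clcn2 encodes a plasma membrane chloride channel that opens on hyperpolarisation and cell swelling. Its level was 17.8, 27.9 and 26.3 in H, 7.91, 4.83, 7.88 and 8.34 in HpC, and 6.25, 8.19 and 5.53 in pC. H stood apart from both, and HpC and pC overlapped. HpC was lower than H by -1.60 ± 0.23 (adjusted p = 0.000147 by limma) and pC by -1.70 ± 0.24 (adjusted p = 0.000161). With TPM as deposited these were -0.53 and -0.26 and were not called.

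Clcn7 encodes the chloride-proton exchanger of lysosomes. Its level was 24.5, 22.5 and 19.6 in H, 8.47, 7.68, 11.3 and 9.33 in HpC, and 7.18, 8.94 and 9.85 in pC. H stood apart here too. The differences from H were -1.19 ± 0.17 in HpC (adjusted p = 0.000151 by limma) and -1.27 ± 0.18 in pC (adjusted p = 0.000163). With TPM as deposited they were -0.12 and 0.19, neither called, so the direction in pC turned with the scaling.

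Clcn3, an exchanger of endosomes and vesicles, was the most abundant CLC gene of HpC and pC. Its level was 17.5, 17.1, 14.7 and 17.6 in HpC, 19.1, 16.5 and 16.2 in pC, and 19.8, 20.3 and 21.6 in H. At this scaling H was above both others by little, and no difference was called (adjusted p = 0.0798 in HpC and 0.155 in pC by limma). With TPM as deposited, every H library was instead below every HpC and pC library. Clcn4, an endosomal exchanger, ran from 8.83 to 9.43 in HpC, 9.93 to 11.7 in pC and 12.3 to 15.8 in H, without overlap. HpC differed from H by -0.53 ± 0.13 (adjusted p = 0.00613), a direction that turned to 0.50 with TPM as deposited. Clcn6, of late endosomes, ran from 2.00 to 4.69 in HpC, 3.56 to 5.52 in pC and 1.08 to 2.21 in H and was called higher than H in both (adjusted p = 0.0372 and 0.0058). The call in HpC was lost in 6 of the 10 fits without 1 library, those without HpC2, HpC3, HpC4, pC1, H2 or H3 (adjusted p up to 0.144). It was also lost with a pseudocount of 5 (0.30, adjusted p = 0.0527), with no filter (0.0733) and in a fit of only the 2 groups (0.0569). Clcn5, of endosomes, ran from 2.91 to 5.32 over all libraries and was called in no comparison.

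Trpc4ap takes its name from a TRPC channel but encodes an adaptor of a ubiquitin ligase. Its level was 50.5, 48.0 and 47.5 in H, 27.6, 24.2, 28.5 and 30.8 in HpC, and 26.2, 26.2 and 27.5 in pC. H was the highest and HpC and pC overlapped. The differences from H were -0.79 ± 0.12 in HpC (adjusted p = 0.000301 by limma) and -0.84 ± 0.13 in pC (adjusted p = 0.000314), and they turned to 0.31 and 0.67 with TPM as deposited. Its mean of 48.7 ± 1.62 (SD, n = 3) was the highest of the set in H, ahead of Clcn2 (24.0 ± 5.38) and Clcn7 (22.2 ± 2.45), which did not differ from each other beyond their spread. In pC the order was Kcnk1 (42.9 ± 4.72), Kcne3 (39.7 ± 32.9) and Ano6 (32.2 ± 1.45), and Kcne3 did not stand apart from its neighbours. In HpC Trpm7 was followed by Trpc4ap (27.8 ± 2.73) and Ano6 (24.8 ± 6.16), all within their spread.

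By role, with all 137 genes counted, tandem-pore channels summed to 28.0 to 34.9 in HpC, 58.3 to 71.3 in pC and 11.1 to 13.2 in H. CLC genes summed to 47.2 to 52.6 in HpC, 51.1 to 53.5 in pC and 80.3 to 91.7 in H. With TPM as deposited, the summed CLC level was instead higher in every pC than in every H library. Anoctamins summed to 31.1 to 45.6 in HpC, 44.1 to 45.5 in pC and 6.80 to 8.61 in H. Voltage-gated pores summed to 22.8 to 30.2 in HpC, 21.1 to 34.2 in pC and 3.41 to 5.12 in H. TRPV channels summed to 8.04 to 14 in HpC, 7.77 to 11.9 in pC and 0.262 to 0.697 in H. HpC and pC thus overlapped in summed CLC, anoctamin, voltage-gated and TRPV levels, and not in that of tandem-pore channels. Nor did they overlap for calcium- or sodium-activated potassium channels (4.04 to 9.03 in HpC, 15.7 to 27.6 in pC and 20.5 to 24.8 in H) or inward rectifiers (5.13 to 7.72 in HpC, 2.08 to 4.22 in pC and 1.07 to 1.85 in H). Single genes dominated some sums. Of the calcium- or sodium-activated sum, Kcnma1 made up 19.2 of 23.6 in pC and Kcnn2 19.0 of 22.0 in H (means). The tandem-pore sums were mostly Kcnk1 and Kcnk5, whereas Kcnk6 was higher in every HpC than in every pC library.

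**Figure D4:**
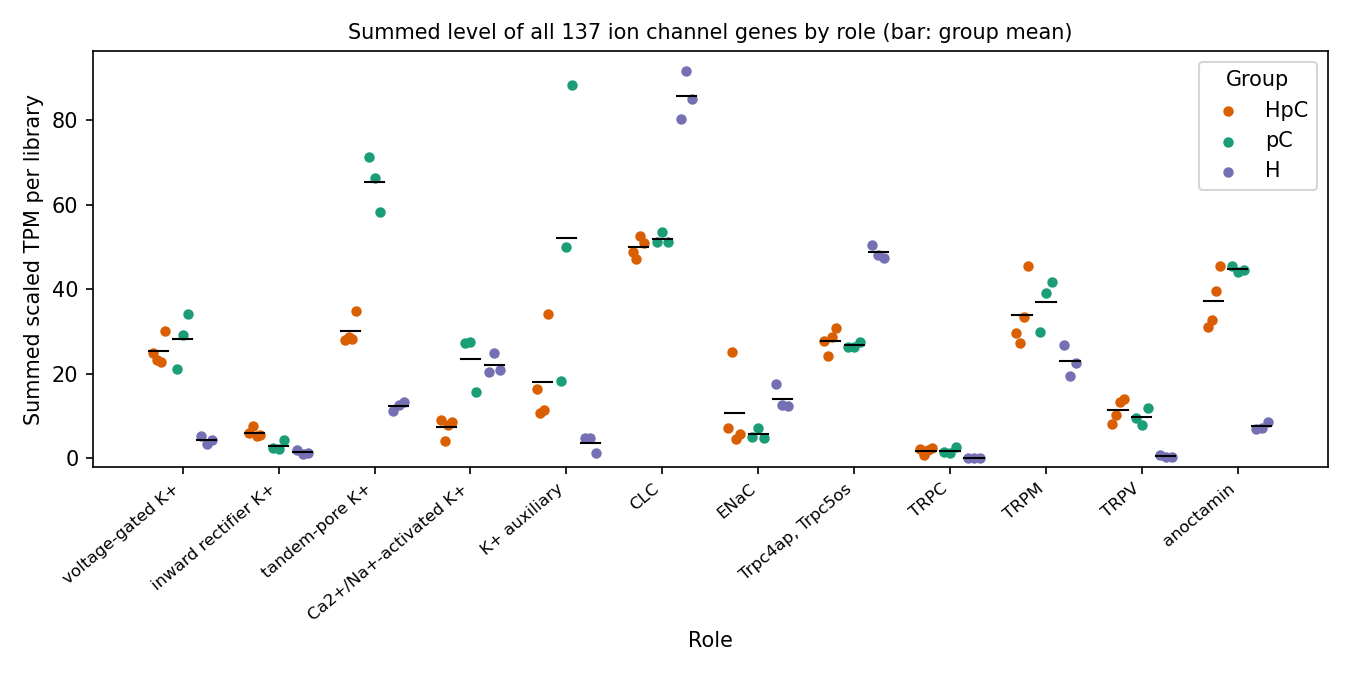
Summed scaled TPM (y axis) of all 137 genes by role (x axis), with each library as a point and the group mean as a bar. Tandem-pore sums do not overlap between the 3 groups, highest in pC and lowest in H. CLC sums are highest in H at the scaling used.

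The genes whose log2 levels followed those of the 3 most abundant genes are given as a description over the 10 libraries, which share 3 cell types. For Kcnk1 they were Ano6 (Pearson's r = 0.983), Kcnq1 (0.983) and Trpm4 (0.980). For Trpc4ap they were Clcn7 (0.974), Clcn2 (0.952) and Kcnn2 (0.933). For Trpm7 they were Kcnip3 (0.814), Trpc1 (0.753) and Kcnh3 (0.739).

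Of the 97 genes under the limit, 81 never reached 1 TPM and 5 were listed at 0 in all libraries. Another 10 reached it in 1 library. Of these, 5 did so in HpC2, the library with squamous transcripts: Ano2 (1.24 TPM as deposited), Kcnj2 (1.10), Kcnk7 (3.11), Kcnv1 (1.5) and Trpv3 (2.92). Outside HpC2, Kcnv1 stayed at 0.0258 TPM or lower and Trpv3, a channel of keratinocytes, at 0.0773 or lower. Genes just outside the limit, at 1 TPM in 2 libraries, included Kcng2, Kcnh2, Kcnh8, Kcnj11 and Scnn1g, whose highest deposited values were 1.39, 2.19, 1.96, 2.76 and 1.79 TPM. Just inside, with 3 libraries, were Kcnip3, Kcnip4, Kcnk6, Kcnrg and Trpv6, with highest values of 1.73, 1.64, 2.62, 1.48 and 1.81 TPM. The families differed in how many genes reached the limit, from 5 of 40 voltage-gated pores and 2 of 15 inward rectifiers to 6 of 9 CLC genes and 5 of 9 anoctamins.

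Other channel genes and regulators were taken from a list of 126 genes, of which 125 were in the tables and 71 were tested. Between HpC and pC 3 were higher and 1 was lower, which is 5.63% of the 71, near the 4.54% of all genes. Scn7a, which encodes the sodium-sensing channel Nax, was 11.5, 3.69, 6.73 and 8.44 in HpC and 0.360, 0.168 and 0.352 in pC (2.65 ± 0.28, adjusted p = 0.00102 by limma). Scn9a, the voltage-gated sodium channel Nav1.7, was 2.76, 1.46, 3.20 and 3.53 in HpC and 0.294, 0.276 and 0.163 in pC (1.55 ± 0.23, adjusted p = 0.00424). Neither group overlapped the other for these genes. Msln, Upk1b and Col1a1 were also higher in every HpC than in every pC library. Gpm6a and Rgs5, of the same marker lists, were lower in every HpC library. The summed mesothelial markers overlapped between HpC and pC, as did the summed stellate and fibroblast markers. Nerve and Schwann cell markers summed to 0.637 to 1.73 in HpC and 2.26 to 3.37 in pC. The part of these cells was not tested. Orai1, the pore of store-operated calcium entry, was higher in HpC (0.99 ± 0.21, adjusted p = 0.0287), and Wnk2, a kinase that acts on chloride cotransporters, was lower (-1.22 ± 0.17, adjusted p = 0.00346). Against H, 37 of the 71 were higher (52.1%) and 14 lower (19.7%) in HpC, where 30.7% and 29.2% of all genes were. In pC 37 were higher (52.1%) and 15 lower (21.1%), against 31.1% and 28.6%. The filter took part here too. Some of the 71, such as Clic6 and Cacna2d1, were listed at 0 in every H library and passed through cholangiocyte libraries. Asic5 passed through H libraries. The direction of these counts follows in part from that, and the split over all genes moved with the scaling, as given above.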

How the data were processed

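The deposited files give, for each library, the TPM of 85276 Ensembl transcripts. Kallisto, DESeq and mm10 are named in the submitters' processing notes, with no word on what each did. TPM sums to the same total in each library, so depth and counting error are unknown. Per the labels' protocols, RNA was isolated with PicoPure and libraries used a kit for low input. Transcripts were joined to genes through GENCODE M21 (81927 matched, 3349 did not) and summed, giving 29972 genes.

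Genes at 1 TPM or more in 3 or more libraries (14765) were kept. TPM was divided by a trimmed mean of log ratios (30% of ratios and 5% of levels trimmed at each end), with factors of 0.668 to 1.61 in HpC, 1.53 to 1.59 in pC and 0.499 to 0.585 in H. Tests ran on log2(scaled TPM + 1) with limma 3.58.1 (R 4.3.3) and a mean-dependent prior, in 1 fit of all 10 libraries, with Benjamini-Hochberg adjustment over all genes at 5%. Python 3.11.15 (pandas 2.3.3) made the tables and matplotlib 3.10.9 the figures. The code was tested on simulated data.

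The genes and lists were chosen with earlier results of these data known. Values in every library are given for genes called between HpC and pC, the 10 called genes with the largest differences from H in HpC and in pC, the 3 most abundant in each group and the most abundant of each role. Alternatives covered scaling, pseudocount, filter, prior, weights, libraries, transcripts and the replicate block. Counts of other channel genes and regulators under the alternatives were added after seeing the data. Values of some genes are not reported here.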

Additional observations from a re-analysis of the deposited data

Results flagged for a closer look

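A library far from the other 3 HpC libraries was found for 5 of the 40 ion channel genes, by the gap to its neighbour as a share of the group's range (Dixon's test at 4 libraries). The nominal rate is about 1 in 20 groups. The share over all genes tested was not computed, so the count describes these libraries and is not a trait of ion channel genes. In 4 of the 5 the library was HpC2, which holds the stratified squamous transcripts. Scnn1a, the alpha subunit of the epithelial sodium channel, stood at 23.4 scaled TPM in HpC2 and at 1.45 to 2.59 in the other HpC libraries. Kcnq5, an M-current channel, stood at 9.10 in HpC2 and at 1.03 to 1.54 in the others. HpC2 was instead the lowest for Clcn2, at 4.83 against 7.88 to 8.34, and for Kcnt2, at 0.377 against 1.32 to 1.47. Kcnab1 stood at 1.20 in HpC1, the library with acinar transcripts, and at 0.613 to 0.636 in the others, all below pC. Clcn2 remained lower than in H and Kcnab1 lower than in pC in each fit that left out 1 library. The part of the squamous and acinar transcripts in these levels was not tested.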

How the results depend on the processing

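Between HpC and pC the 7 calls became 3 with a filter of 5 TPM, 4 with only the 2 groups compared, 4 relative to nuclear protein-coding TPM, and 3 to 8 when 1 library was left out (3 without pC1, 4 without pC2). Against H, the 26 calls in HpC and 24 in pC became 15 and 15 with the 5 TPM filter, which tests fewer genes, and 24 to 26 and 21 to 28 with 1 library left out. Of the other channel genes and regulators, 4 were called between HpC and pC. Their number became 2 with the 5 TPM filter, 13 with libraries weighted by their spread and 3 to 6 with 1 library left out. Kcnk1, Kcnma1 and Kcnab1 were called between HpC and pC under each alternative that could test them.

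Single genes were followed against H under the alternatives only where they were called. Among these calls, directions turned for Clcn4 in HpC (0.50 with TPM as deposited, 0.28 relative to nuclear protein-coding TPM). They also turned for Trpc4ap in HpC (0.31 and 0.057) and in pC (0.67 and 0.33) and for Clcn7 in pC (0.19 with TPM as deposited). The scaling that moves the median of all genes upwards moved these with it. Scnn1a, never called between HpC and pC, turned to 0.036 with a pseudocount of 5, and ranged from -0.89 to 0.22 with 1 library left out. It was 0.035 without HpC1, 0.22 without HpC3, 0.040 without HpC4 and 0.057 without pC2.

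Deviations from the group means correlated at -0.05 to 0.08 for same-numbered libraries and at -0.18 to 0.17 for other pairs. With so few libraries in a group, this cannot decide whether the numbers pair the samples. Libraries of the same number differed in age. With the replicate block, 5 ion channel genes were called between HpC and pC, 24 between HpC and H and 24 between pC and H. Of the other channel genes and regulators, 4, 49 and 47 were called in these comparisons. Scnn1a was 0.040 under the block, and Kcnh7 and Scnn1b between HpC and pC (adjusted p = 0.0617 and 0.0881 by limma) and Clcn6 and Kcne3 between HpC and H (0.0584 and 0.141) were no longer called.

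Depth is unknown, so levels near 0 carry no detection limit. Kcne3 was called between HpC and pC with weighted libraries alone (-3.61), and Trpm4 likewise (-0.69).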
